A study of Mus musculus with 42 samples.

Results

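The libraries described here are the 6 of the medial prefrontal cortex (mPFC) in a mouse brain RNA-seq series of 42 libraries: 3 from mice after chronic restraint stress (CRS) and 3 from naive mice. They were taken by the region and condition in the sample titles, with no measured value used. The series covers 6 regions; the lateral habenula has a table of its own, not used here, and mPFC shares a table of 30 libraries with nucleus accumbens (NAc), lateral hypothalamus (LH), ventral tegmental area (VTA) and ventral hippocampus (vHippo). CRS mice had been immobilised repeatedly, and naive mice had not. Both kinds of mice went through the forced swim test (FST), a measure of immobility in water, 2 days before sacrifice, so the naive mice had also met that test. The series sorts its mice by FST immobility, but the titles of the mPFC libraries name no such class, and a group may hold both. Strain, sex, age, the restraint schedule and any pooling of animals are not given in the sources used here. The labels do not say that the 3 libraries of a group come from separate animals, so every p-value measures only the spread between these libraries, which may be technical.

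The mPFC is the frontal midline cortex of the mouse, made up mainly of glutamatergic pyramidal neurons in layers, GABAergic interneurons and glia. It is known for the top-down control of stress responses, and it carries receptors for the corticosteroids that restraint releases. Restraint repeated over days is known to shorten dendrites and remove spines of its pyramidal neurons, and genes of glutamate signalling, autophagy, mitochondria and the corticosteroid response are often followed in such tissue. The question put to these libraries was which genes differ in mPFC between CRS and naive mice. The tissue was sequenced whole, and in such samples fewer cells of a type and less RNA per cell cannot be told apart.

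Total counts were 79029360, 57252524 and 55253168 in CRS libraries 1 to 3, and 53143878, 70007355 and 58584233 in naive libraries 1 to 3. Levels are given below as FPKM (fragments per kilobase of transcript, scaled to the mapped fragments of the library, the authors' values), and all differences as log2 fold changes of CRS over naive fitted to the counts, with a 95% interval. Genes of pyramidal neurons were present in every library. Slc17a7, the vesicular glutamate transporter of cortical pyramidal neurons, stood at 198, 223 and 123 FPKM in CRS and 227, 255 and 190 FPKM in naive libraries. Camk2a, a kinase of excitatory neurons, stood at 284, 367 and 242 FPKM in CRS and 354, 294 and 372 FPKM in naive libraries. Both genes were lowest in CRS library 3, and they do not by themselves settle the region of a library.

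Several libraries held high levels of genes that mark other tissue. A list of 18 olfactory bulb genes, chosen after the values were seen, summed to 8.62, 10.2 and 440 FPKM in CRS and 5.69, 6.41 and 15.1 FPKM in naive libraries. Its member Eomes, a transcription factor of bulb projection neurons, stood at 0.0396, 0.0946 and 18.9 FPKM in CRS libraries and was listed at 0, 0 and 0.0573 FPKM in naive libraries. CRS library 3 thus stood apart in these genes, and it also had the lowest sum over the pyramidal neuron list, at 2309, 1788 and 848 FPKM in CRS against 1720, 1615 and 1430 FPKM in naive libraries. Leptomeningeal fibroblast genes, which mark the membranes over the brain, summed to 66.5, 91.3 and 362 FPKM in CRS and 51.4, 49.2 and 1244 FPKM in naive libraries, highest in naive library 3. Genes of skin epithelium, a list also chosen after the values were seen, summed to 6.78, 4.73 and 6.95 FPKM in CRS and 69.8, 76.7 and 7.35 FPKM in naive libraries. Genes of skeletal muscle, chosen in the same way, summed to 11.7, 8.16 and 6.15 FPKM in CRS and 34.1, 120 and 8.48 FPKM in naive libraries. Naive libraries 1 and 2 were high in both of these lists and naive library 3 was not. Krt14, a keratin of the basal layer of skin, was listed at 0 in all 3 CRS libraries and stood at 10.9, 20.1 and 0 FPKM in naive libraries. Ribosomal RNA took 0.101%, 0.278% and 0.212% of counts in CRS and 0.741%, 7.0% and 0.309% in naive libraries, highest in naive library 2. Between replicates of the same group, counts differed by more than sampling noise in all 6 pairs compared.

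**Figure D1:**
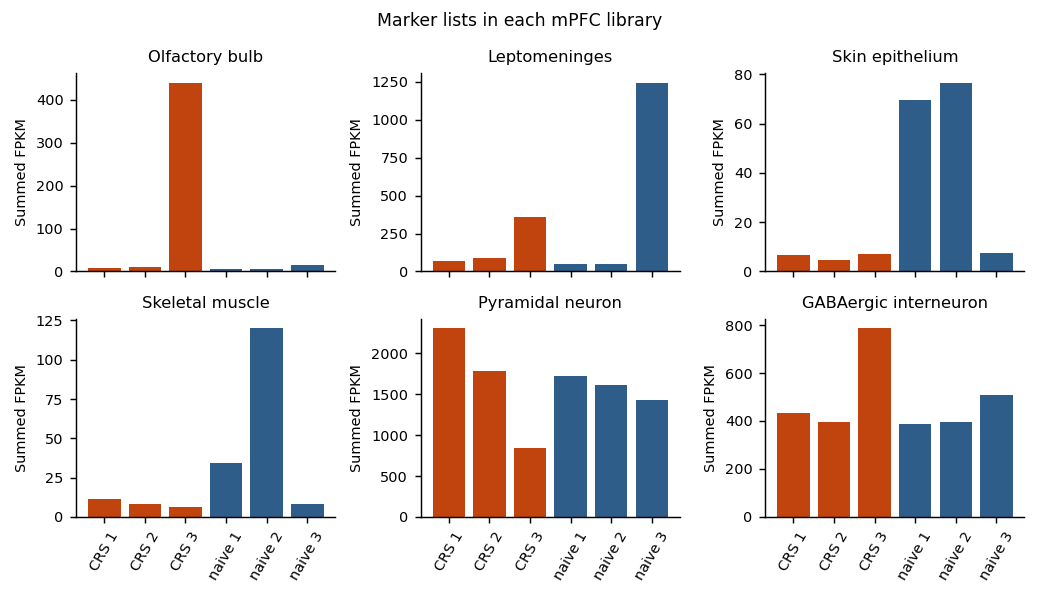
Summed FPKM of 6 marker lists (one panel each, own vertical axis from 0) in the 3 CRS libraries (orange) and the 3 naive libraries (blue) of mPFC. CRS library 3 stands out at 440 FPKM in olfactory bulb genes, naive library 3 at 1244 FPKM in leptomeningeal genes, and naive libraries 1 and 2 at 69.8 and 76.7 FPKM in skin genes.

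No gene differed between CRS and naive mPFC beyond the spread of the libraries in edgeR. Of 20064 genes tested with edgeR's quasi-likelihood test, 0 passed an adjusted p of 0.05 (Benjamini-Hochberg), which is 0% in either direction, and the smallest adjusted p was 0.9996. At an unadjusted p below 0.05 stood 314 genes (1.56%), of which 125 were higher in CRS (0.623%) and 189 lower (0.942%). DESeq2 called 36 of 33017 genes with a count, 4 higher and 32 lower in CRS. Of those 36, 10 are on the skin and muscle lists and 13 were listed at 0 in every CRS library. As these lists were chosen after the values were seen, the overlap is not an independent result. Without naive library 3 edgeR called 4 genes, all lower in CRS: Atp2a1, Krt79, Krt15 and Krt14, the first of muscle and the others keratins of skin. These keratins were not tested with all libraries, because the low-count filter removed them there. Without naive library 3 they passed the filter through naive libraries 1 and 2, where they are high, so their calls are not an independent result. Of 45 gene list medians followed below, 38 changed sign in at least 1 of the alternatives tried. The members of these lists were chosen with earlier results of these data known, so counts of them below are not an independent result. The median log2 fold change over all tested genes was 0.006, and 10224 of them (51%) were above 0. FPKM was higher in every CRS than in every naive library for 596 genes (2.97%) and lower for 459 (2.29%). For the 13651 genes at a mean of 1 FPKM or more the 95% interval reached a median of 0.64 log2 units to either side. That interval is unadjusted, so a change larger than its width could still miss the adjusted threshold.

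None of the genes described from here on passed the threshold in edgeR with all libraries and no term for replicate number. For CRS against naive mPFC all adjusted p-values of those tested there were 0.9996 or above. Coordinates are those of the deposited table, which match GRCm38. Among named genes at 1 FPKM or more, those with the smallest p that were higher in CRS begin with Ttr (ENSMUSG00000061808, chromosome 18, 20665280 to 20674321), which encodes transthyretin, the thyroxine carrier made by the choroid plexus. Ttr stood at 1.54, 1.99 and 1.83 FPKM in CRS and 0.210, 0.124 and 0.387 FPKM in naive libraries, a log2 fold change of 2.86 (95% interval 1.70 to 4.03). Every CRS library lay above every naive one, and the value stayed between 2.59 and 3.33 when any library was left out. The 14 choroid plexus genes in the table summed to 34.3, 29.8 and 28.8 FPKM in CRS and 25.8, 16.7 and 24.4 FPKM in naive libraries, and of the 10 that were tested 4 had fold changes above 0. The part of choroid plexus tissue in the Ttr value was not tested.

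Atp6ap1l (chromosome 13, 90883433 to 90905307), a relative of an accessory subunit gene of the vacuolar proton pump, stood at 16.3, 13.3 and 13.9 FPKM in CRS and 6.20, 4.73 and 8.09 FPKM in naive libraries. Its log2 fold change was 1.18 (0.59 to 1.77), the groups did not overlap, and leaving out single libraries gave 1.04 to 1.35. Rbm3 (chromosome X, 8138975 to 8145880) encodes an RNA-binding protein induced by mild cold that is known in mice to protect synapses. It stood at 23.7, 15.9 and 18.9 FPKM in CRS and 11.5, 9.55 and 12.2 FPKM in naive libraries, a log2 fold change of 0.80 (0.30 to 1.3). Again the groups did not overlap, with CRS library 1 the highest. An antisense gene, Rbm3os, overlaps Rbm3, and since strand use in counting is not given in the sources used here, reads of both cannot be told apart. The same holds for other named genes that overlap a neighbour or an antisense gene, among them Atp2a1 with Rabep2, Ckm with A930016O22Rik, Penk with A830012C17Rik, Nmb with Sec11a, Gad1 with Gad1os and Dbp with Sphk2.

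Adam33 (chromosome 2, 131050591 to 131063814), a membrane metalloprotease gene, stood at 1.52, 1.33 and 3.12 FPKM in CRS and 0.259, 0.142 and 0.855 FPKM in naive libraries, a log2 fold change of 2.25 (0.79 to 3.70). All CRS libraries lay above all naive ones. DESeq2 called Ttr (adjusted p = 0.000533), Atp6ap1l and Adam33 (both adjusted p = 0.0499) as higher in CRS. Omp (chromosome 7, 98143359 to 98145502), the olfactory marker protein gene, overlaps Capn5, and their reads cannot be told apart. It stood at 0.260, 0.132 and 11 FPKM in CRS and 0.104, 0.0491 and 0.0274 FPKM in naive libraries. Its log2 fold change was 5.80 (1.95 to 9.66) with all libraries and 1.66 without CRS library 3, the library high in olfactory bulb genes. Omp is itself a member of the olfactory bulb list.

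The genes with the smallest p that were lower in CRS belong largely to muscle and lining tissue. Atp2a1 (chromosome 7, 126445858 to 126463108), the calcium pump of fast skeletal muscle, stood at 0.109, 0.127 and 0.0779 FPKM in CRS and 3.46, 5.89 and 0.546 FPKM in naive libraries, a log2 fold change of -5.03 (-7.0 to -3.05). Ckm (chromosome 7, 19404776 to 19422841), the muscle creatine kinase, had 6, 0 and 0 reads in CRS and 325, 1602 and 17 reads in naive libraries. In both genes the naive order was that of the muscle list, with library 2 highest and library 3 lowest. Tpm2 (chromosome 4, 43514711 to 43523765), a tropomyosin of muscle and fibroblasts, stood at 0.900, 0.822 and 1.65 FPKM in CRS and 1.98, 10.1 and 6.74 FPKM in naive libraries, a log2 fold change of -2.54 (-3.91 to -1.17). Emp1 (chromosome 6, 135362545 to 135383173), an epithelial membrane protein gene, stood at 0.167, 0.191 and 0.394 FPKM in CRS and 2.94, 0.656 and 1.37 FPKM in naive libraries, a log2 fold change of -2.72 (-4.03 to -1.4). Tmem45a (chromosome 16, 56805161 to 56886166), a transmembrane protein gene of keratinocytes, stood at 0.114, 0.0422 and 0.229 FPKM in CRS and 1.89, 0.769 and 0.665 FPKM in naive libraries, a log2 fold change of -3.12 (-4.72 to -1.52). DESeq2 also called Atp2a1, Tpm2, Emp1 and Tmem45a. For all 5 genes every CRS library lay below every naive one. Across naive libraries Atp2a1 and Ckm followed the muscle sum, while Tpm2, Emp1 and Tmem45a followed neither the skin nor the muscle sum. The part of such tissue in these values was not tested.

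**Figure D2:**
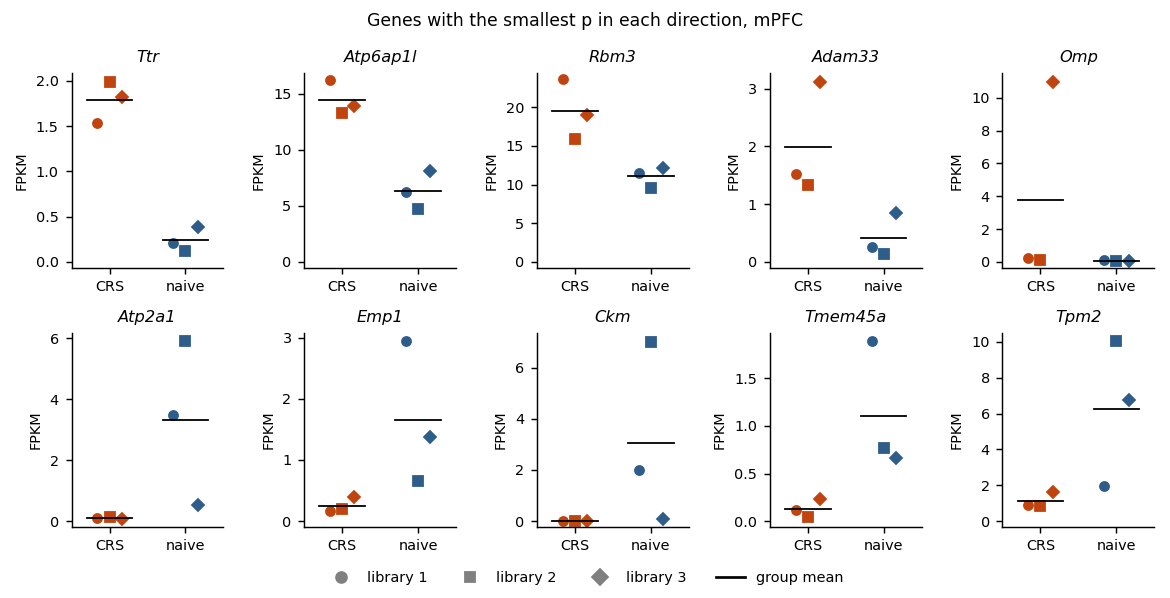
FPKM (linear vertical axis, own scale per gene) of the 10 genes with the smallest p, higher in CRS in the top panels and lower in the bottom panels; points are the 3 CRS (orange) and 3 naive (blue) mPFC libraries, shapes give the library number and lines the group means. Ttr, Atp6ap1l and Rbm3 are high in all 3 CRS libraries, Omp reaches 11 FPKM in CRS library 3 alone, and the muscle genes Atp2a1 and Ckm are highest in naive library 2.

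Corticosteroids act through the glucocorticoid receptor Nr3c1, which switches on feedback and metabolic genes. Nr3c1 stood at 12.8, 13.2 and 9.28 FPKM in CRS and 16.3, 13 and 12.5 FPKM in naive libraries, a log2 fold change of -0.27 (-0.78 to 0.24) with overlapping groups. Fkbp5, a co-chaperone that the receptor induces and that restrains it, stood at 1.37, 2.1 and 2.77 FPKM in CRS and 1.49, 1.81 and 2.36 FPKM in naive libraries, a log2 fold change of 0.10 (-0.57 to 0.76). Sgk1, a kinase induced by corticosteroids, stood at 10.8, 11.4 and 6.21 FPKM in CRS and 8.18, 11 and 13 FPKM in naive libraries, a log2 fold change of -0.20 (-0.88 to 0.47). The CRS and naive libraries of both target genes interleaved. Among the 33 tested genes of the corticosteroid list, 0 had an unadjusted p below 0.05, 11 fold changes were above 0 and the median was -0.17. Without naive library 3, the one high in leptomeningeal genes, 22 were above 0 and the median was 0.17, so the list had no stable direction.

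Of the members with the smallest p on that list, Dusp1, a phosphatase that ends MAP kinase signalling, stood at 10.1, 11.6 and 4.55 FPKM in CRS and 12.8, 12.8 and 16.1 FPKM in naive libraries. Its log2 fold change of -0.68 (-1.46 to 0.10) came with CRS library 3 far below the other 5 and was -0.35 without it. Errfi1, an inhibitor of the EGF receptor, stood at 6.46, 6.80 and 5.82 FPKM in CRS and 6.68, 7.24 and 13.4 FPKM in naive libraries, a log2 fold change of -0.53 (-1.15 to 0.10) that was -0.21 without naive library 3. Cdkn1a, the cell-cycle inhibitor p21, stood at 4.09, 4.12 and 19.3 FPKM in CRS and 3.64, 4.67 and 3.95 FPKM in naive libraries. For Cdkn1a the log2 fold change of 1.10 (-0.21 to 2.41) was -0.01 without CRS library 3. Hif3a, a hypoxia-inducible factor subunit gene on the same list, stood at 0.616, 1.16 and 1.19 FPKM in CRS and 0.813, 0.475 and 0.689 FPKM in naive libraries, a log2 fold change of 0.55 (-0.23 to 1.33) with CRS libraries 2 and 3 above all naive ones.

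Corticotropin-releasing hormone, the peptide that starts the hormonal stress response, is also made by cortical interneurons. Its gene Crh stood at 3.70, 2.60 and 4.6 FPKM in CRS and 2.44, 1.81 and 1.72 FPKM in naive libraries, with every CRS library above every naive one. The log2 fold change was 0.84 (0.03 to 1.64), and 0.67 to 1.04 with any single library left out. Its main receptor Crhr1 stood at 7.82, 7.73 and 16.9 FPKM in CRS and 9.48, 5.33 and 5.04 FPKM in naive libraries, a log2 fold change of 0.67 (-0.18 to 1.52) that was 0.24 without CRS library 3. The second receptor, Crhr2, stood at 0.179, 0.237 and 0.181 FPKM in CRS and 0.221, 0.361 and 0.475 FPKM in naive libraries, a log2 fold change of -0.85 (-1.85 to 0.14) at levels below 1 FPKM. Of the 6 tested genes of the CRH, vasopressin and oxytocin list, 3 were above 0 and the median was -0.08.

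Immediate-early genes are switched on within minutes by neuronal activity. Fos stood at 13.2, 14.1 and 11.2 FPKM in CRS and 13.2, 19.6 and 13.4 FPKM in naive libraries, a log2 fold change of -0.31 (-0.90 to 0.28). Arc, which controls AMPA receptor removal, stood at 38.9, 30.4 and 34.2 FPKM in CRS and 37.3, 37.1 and 9.58 FPKM in naive libraries, a log2 fold change of 0.25 (-0.84 to 1.34) that was -0.18 without naive library 3. The groups overlapped in both genes. Nr4a3, an orphan nuclear receptor gene, stood at 4.82, 7.57 and 6.78 FPKM in CRS and 8.76, 13.1 and 7.24 FPKM in naive libraries, a log2 fold change of -0.67 (-1.35 to 0.01). Of the 40 tested genes of the list 9 were above 0, the median was -0.28, and 0 had an unadjusted p below 0.05. With single libraries left out the median ran from -0.31 to -0.18, below 0 each time. The groups still overlapped: the list's median deviation from each gene's mean was -0.0004, -0.071 and -0.083 log2 units in CRS libraries. In naive libraries it was -0.028, 0.32 and 0.068, so naive library 1 lay below CRS library 1. An exception on the list was Dusp5, a phosphatase of ERK, at 3.34, 2.56 and 10.3 FPKM in CRS and 3.13, 2.00 and 2.44 FPKM in naive libraries, a log2 fold change of 1.05 (-0.09 to 2.20) that was 0.24 without CRS library 3.

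Neurotrophins support synapses through Trk receptors. Bdnf, the brain-derived neurotrophic factor, stood at 4.26, 4.33 and 2.60 FPKM in CRS and 6.34, 4.35 and 3.06 FPKM in naive libraries, a log2 fold change of -0.32 (-1.08 to 0.44). Its receptor Ntrk2 stood at 19.8, 32.1 and 31.2 FPKM in CRS and 32.6, 26.1 and 36.9 FPKM in naive libraries, a log2 fold change of -0.23 (-0.78 to 0.31). Shc3, an adaptor of Trk receptors in neurons, stood at 1.61, 7.26 and 5.52 FPKM in CRS and 10.1, 8.91 and 5.53 FPKM in naive libraries, a log2 fold change of -0.84 (-1.95 to 0.27). CRS library 1 was the lowest of the 6 for Ntrk2 and Shc3, while for Bdnf it was CRS library 3. Of 14 tested genes of the list 4 were above 0, with a median of -0.22.

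Of the neuropeptide precursors, the source of slow peptide transmitters, 5 of 21 had an unadjusted p below 0.05, all higher in CRS, against 0.623% of all genes, and in 5 of 21 every CRS library lay above every naive one, against 2.97%. Penk, the enkephalin precursor, stood at 18.9, 16.4 and 71.3 FPKM in CRS and 7.85, 6.96 and 16.3 FPKM in naive libraries, a log2 fold change of 1.75 (0.44 to 3.06). The groups did not overlap, though CRS library 2 and naive library 3 nearly met. Nmb, neuromedin B, stood at 1.84, 1.65 and 19.6 FPKM in CRS and 0.820, 1.13 and 1.53 FPKM in naive libraries, a log2 fold change of 2.64 (0.50 to 4.78). Trh, the thyrotropin-releasing hormone precursor, stood at 0.912, 1.23 and 21.6 FPKM in CRS and 1.09, 1.03 and 0.462 FPKM in naive libraries, a log2 fold change of 3.10 (0.46 to 5.74). Scg2, a secretogranin of dense-core vesicles, stood at 84.2, 87.4 and 188 FPKM in CRS and 82.8, 61.1 and 56.5 FPKM in naive libraries, a log2 fold change of 0.80 (0.04 to 1.57). In all 4 genes CRS library 3, high in olfactory bulb genes, was far above the other libraries. Nmb is itself a member of the olfactory bulb list. Without it the log2 fold change was 0.79 for Penk, 0.58 for Nmb, 0.28 for Trh and 0.36 for Scg2. The list as a whole had 12 of 21 fold changes above 0 and a median of 0.16, and 16 of 21 and 0.28 without CRS library 3.

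Among the receptors these transmitters meet, the kappa opioid receptor Oprk1 stood at 0.0629, 0.753 and 0.331 FPKM in CRS and 0.944, 1.3 and 0.377 FPKM in naive libraries, a log2 fold change of -1.29 (-3.10 to 0.52). Of 8 tested opioid genes 2 were above 0, with a median of -0.02. The serotonin receptor gene Htr6 stood at 1.14, 1.88 and 1.26 FPKM in CRS and 2.67, 2.39 and 1.48 FPKM in naive libraries, a log2 fold change of -0.66 (-1.51 to 0.19) with overlapping groups. Htr2b, a second serotonin receptor gene, which overlaps Psmd1, stood at 0.0280, 0.0205 and 0.0764 FPKM in CRS and 0.215, 0.101 and 0.189 FPKM in naive libraries, without overlap but near the limit of detection, a log2 fold change of -1.95 (-3.79 to -0.12). Serotonin receptors had 5 of 13 fold changes above 0 and a median of -0.17, and dopamine and adrenergic receptors 4 of 15 and a median of -0.21. The D5 dopamine receptor Drd5 stood at 0.790, 0.822 and 0.401 FPKM in CRS and 0.931, 1.49 and 0.714 FPKM in naive libraries, a log2 fold change of -0.69 (-1.77 to 0.39). Acetylcholine receptors had 7 of 14 above 0 and a median of 0.006. Among the receptors named, the interval of Htr2b alone excluded 0.

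The named subunits of ionotropic glutamate receptors had overlapping levels in both groups. Gria1, a subunit of the AMPA receptor that carries fast excitation, stood at 46.6, 76.2 and 83.7 FPKM in CRS and 76.5, 76.8 and 77.3 FPKM in naive libraries, a log2 fold change of -0.20 (-0.77 to 0.36). CRS library 1 was far below the other 5 libraries, which lay close together. Grin2b, an NMDA receptor subunit, stood at 8.10, 20.2 and 19.2 FPKM in CRS and 26.7, 20.9 and 12.6 FPKM in naive libraries, a log2 fold change of -0.40 (-1.3 to 0.50), again with CRS library 1 lowest. Grin1, the obligatory NMDA subunit, overlaps the antisense gene Grin1os and stood at 43.5, 48.4 and 54.5 FPKM in CRS and 41.6, 45 and 38.6 FPKM in naive libraries, a log2 fold change of 0.18 (-0.30 to 0.67). AMPA and kainate receptor genes had 9 of 21 fold changes above 0 and a median of -0.03, NMDA receptor genes 4 of 8 and a median of -0.001. Within both lists 0 genes had an unadjusted p below 0.05.

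Of the metabotropic receptors, which signal through G proteins, Grm4 stood at 2.56, 3.23 and 15.2 FPKM in CRS and 2.29, 2.42 and 2.84 FPKM in naive libraries, a log2 fold change of 1.41 (0.03 to 2.79) that was 0.19 without CRS library 3. The list had 6 of 10 above 0 and a median of 0.07. Slc1a2, the main glutamate transporter of astrocytes, stood at 118, 141 and 126 FPKM in CRS and 162, 138 and 190 FPKM in naive libraries, a log2 fold change of -0.37 (-0.91 to 0.17) with a single overlap between the groups. Genes of glutamate transport and metabolism had 12 of 16 above 0 and a median of 0.08, but 5 of 16 and -0.13 without CRS library 3.

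At GABA synapses, Gad1, the enzyme that makes GABA, stood at 31.8, 33.2 and 209 FPKM in CRS and 31.6, 25.6 and 34.5 FPKM in naive libraries. For Gad1 the log2 fold change of 1.52 (-0.02 to 3.06) was 0.09 without CRS library 3. Gabrd, a subunit of GABA-A receptors outside synapses, stood at 20.7, 12.5 and 12.6 FPKM in CRS and 9.83, 9.28 and 12.5 FPKM in naive libraries, a log2 fold change of 0.53 (-0.09 to 1.14). Here the spread of the CRS libraries came from library 1. The GABA synapse list had 22 of 32 above 0 and a median of 0.08, but 14 of 32 and -0.10 without CRS library 3. The wider list of GABAergic interneuron markers had 16 of 24 above 0 and a median of 0.52, and 11 of 24 and -0.07 without CRS library 3.

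Among scaffold genes of the postsynaptic density, Shank3 stood at 12.1, 16.6 and 12.5 FPKM in CRS and 21.1, 17.9 and 17.8 FPKM in naive libraries, with every CRS library below every naive one. Its log2 fold change was -0.49 (-0.96 to -0.03), and -0.63 to -0.41 with single libraries left out. The list had 13 of 31 above 0 and a median of -0.05, and Shank3 was its 1 member at an unadjusted p below 0.05. Unc13c, a Munc13 gene that primes synaptic vesicles, stood at 1.28, 1.85 and 1.66 FPKM in CRS and 3.46, 2.48 and 2.04 FPKM in naive libraries, also without overlap, a log2 fold change of -0.78 (-1.38 to -0.17). The vesicle release list had 17 of 43 above 0 and a median of -0.09. Cbln4, a cerebellin that bridges neurexins and postsynaptic receptors, stood at 2.89, 1.68 and 10.3 FPKM in CRS and 2.5, 0.929 and 1.4 FPKM in naive libraries, a log2 fold change of 1.59 (0.09 to 3.09) that was 0.54 without CRS library 3. Its list of neurexins, neuroligins and cerebellins had 11 of 24 above 0 and a median of -0.005.

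The potassium, HCN and T-type channel list had 3 of 50 genes at an unadjusted p below 0.05, all higher in CRS, against 0.623% of all genes, with 24 above 0 and a median of -0.02. Kcnj4, the inward rectifier Kir2.3, stood at 55.1, 43.4 and 62.2 FPKM in CRS and 36.7, 38.0 and 36.1 FPKM in naive libraries. The naive libraries lay close together and below all CRS libraries, and the log2 fold change was 0.50 (0.03 to 0.98), or 0.41 to 0.65 with single libraries left out. Kcnip1, an interacting protein of A-type channels, stood at 3.99, 3.56 and 8.42 FPKM in CRS and 2.99, 2.38 and 3.49 FPKM in naive libraries, a log2 fold change of 0.82 (0.07 to 1.57) that was 0.36 without CRS library 3. Hcn4, a pacemaker channel, stood at 0.525, 0.904 and 4.97 FPKM in CRS and 0.743, 0.602 and 0.527 FPKM in naive libraries, a log2 fold change of 1.70 (0.01 to 3.40) that was 0.17 without CRS library 3. Of the 3, the groups of Kcnj4 and Kcnip1 did not overlap and those of Hcn4 did. Sodium and calcium channels had 11 of 24 above 0 and a median of -0.03.

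**Figure D3:**
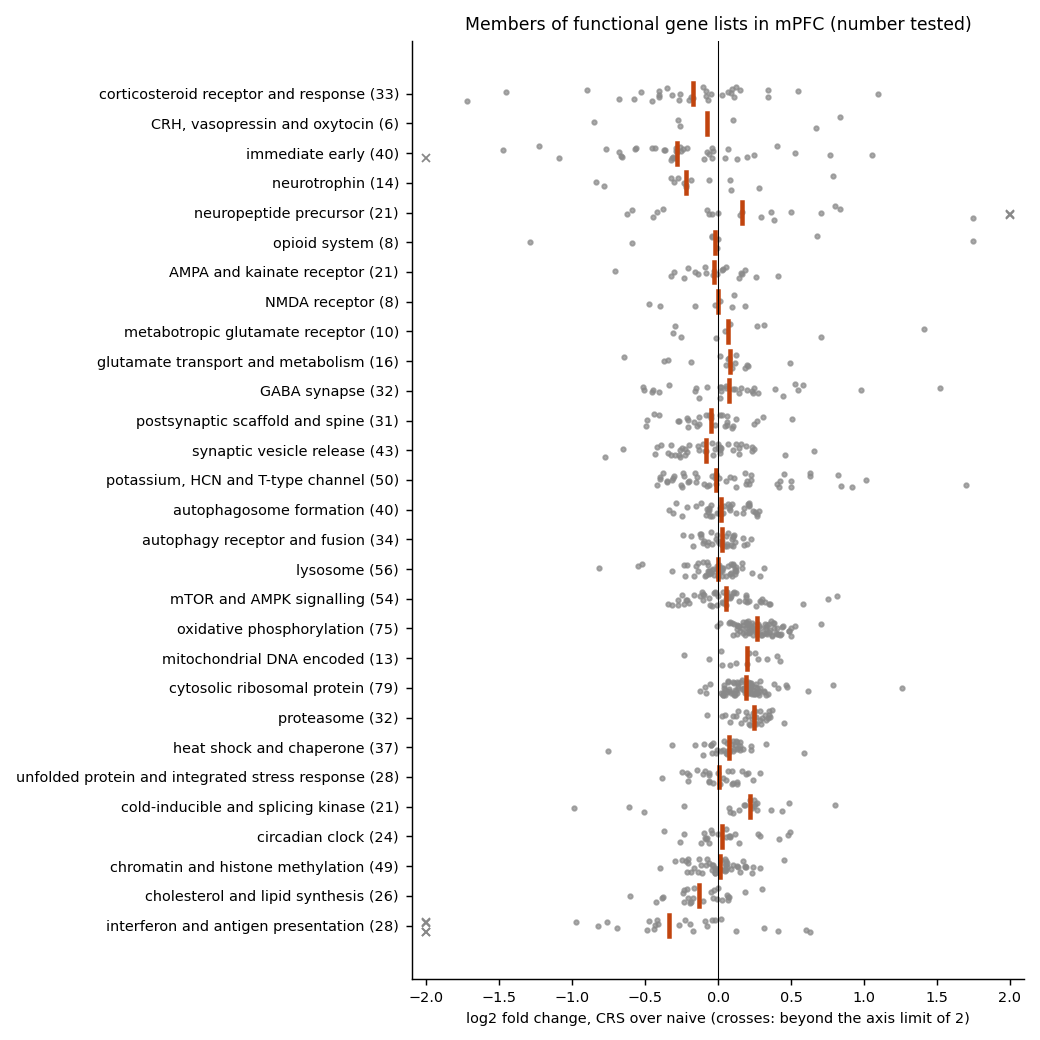
Log2 fold changes of CRS over naive in mPFC (horizontal axis) for the tested members of 29 functional gene lists; each dot is a gene, the orange bar is the list's median, the number of genes stands in parentheses and crosses lie beyond the axis. Most medians lie close to 0; oxidative phosphorylation (0.27), the proteasome (0.25) and cytosolic ribosomal proteins (0.19) lie to the right with nearly all members, and immediate-early genes (-0.28) to the left.

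Autophagy, the digestion of cell contents in lysosomes, depends on conjugation of LC3 to membranes, on cargo receptors and on restraint by the kinase mTOR. Map1lc3b, which encodes LC3B, stood at 21.3, 16.8 and 16.5 FPKM in CRS and 16.8, 16.2 and 18.1 FPKM in naive libraries, a log2 fold change of 0.08 (-0.39 to 0.54). Sqstm1, the cargo receptor p62, stood at 108, 117 and 82.6 FPKM in CRS and 93.0, 106 and 96.2 FPKM in naive libraries, a log2 fold change of 0.03 (-0.50 to 0.56). The groups overlapped in both genes, and both intervals end short of a log2 fold change of 1 in either direction.

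Becn1, a subunit of the lipid kinase complex that starts autophagosomes, stood at 15.4, 12.6 and 11.3 FPKM in CRS and 13.1, 12.4 and 12.3 FPKM in naive libraries, a log2 fold change of 0.04 (-0.44 to 0.51). Atg7, the enzyme that activates LC3, stood at 2.57, 3.39 and 2.21 FPKM in CRS and 3.04, 3.31 and 3.11 FPKM in naive libraries, a log2 fold change of -0.25 (-0.79 to 0.29). Ulk1, the kinase at the start of the pathway, stood at 8.72, 11.5 and 11.5 FPKM in CRS and 13.6, 11.3 and 10.9 FPKM in naive libraries, a log2 fold change of -0.21 (-0.64 to 0.22). None of the 3 separated the groups. The list of autophagosome formation had 24 of 40 above 0 and a median of 0.02, and that of autophagy receptors and fusion 19 of 34 and a median of 0.03. Neither list had a gene at an unadjusted p below 0.05, and their fold changes ran from -0.34 to 0.28 and from -0.24 to 0.23. These measurements are of transcripts and give no rate of autophagy.

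Lysosomal genes had 28 of 56 above 0 and a median of -7.8e-05. Ctsf, the protease cathepsin F, stood at 9.98, 9.09 and 12.2 FPKM in CRS and 7.51, 7.14 and 10.1 FPKM in naive libraries, a log2 fold change of 0.31 (-0.14 to 0.77). Mtor itself stood at 6.60, 11.8 and 18 FPKM in CRS and 9.43, 8.87 and 9.25 FPKM in naive libraries. For Mtor the log2 fold change of 0.35 (-0.36 to 1.06) was -0.02 without CRS library 3, and the CRS libraries lay on both sides of the tight naive ones. Lamtor3, part of the Ragulator complex that holds mTORC1 at the lysosome, stood at 9.88, 8.06 and 8.42 FPKM in CRS and 7.22, 6.01 and 7.19 FPKM in naive libraries, without overlap, a log2 fold change of 0.35 (-0.09 to 0.79). Rragd, a Rag GTPase gene of the mTOR pathway, stood at 21.9, 20.8 and 62.0 FPKM in CRS and 23.4, 18.2 and 15.8 FPKM in naive libraries, a log2 fold change of 0.82 (-0.13 to 1.76) that was 0.15 without CRS library 3. The mTOR and AMPK list had 31 of 54 above 0 and a median of 0.05.

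Oxidative phosphorylation genes, which encode the nuclear subunits of the respiratory chain and ATP synthase, were nearly all of 1 sign: 74 of 75 fold changes were above 0, against 51% of all genes, with a median of 0.27. None had an unadjusted p below 0.05. Uqcrb, a subunit of complex III, stood at 46.8, 21.9 and 27.2 FPKM in CRS and 16.5, 15.8 and 26.6 FPKM in naive libraries, a log2 fold change of 0.71 (-0.09 to 1.5). Ndufs4, a complex I subunit, stood at 17.8, 10.1 and 10.9 FPKM in CRS and 9.41, 7.64 and 9.74 FPKM in naive libraries, a log2 fold change of 0.53 (-0.10 to 1.16), and every CRS library was above every naive one. In both genes CRS library 1 was far above all others. The sum over the list was 3635, 2264 and 2236 FPKM in CRS and 1983, 2315 and 2519 FPKM in naive libraries. Without CRS library 1 only 19 of 75 fold changes were above 0, and the median was -0.08.

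Of the 45 lists whose medians were followed across alternatives, 17 changed sign without CRS library 1. Cytosolic ribosomal protein genes had 75 of 79 above 0 and a median of 0.19 with all libraries, but 5 of 79 and -0.19 without CRS library 1. Proteasome genes had 31 of 32 above 0 and a median of 0.25, but 15 of 32 and -0.01 without it. The 13 genes of mitochondrial DNA had 11 above 0 and a median of 0.20, but 6 and -0.01 without it, and 5 and -0.07 without naive library 2. Transcript length was taken as that implied by counts and FPKM, a ratio per gene that need not equal the length of its mRNA. In CRS library 1, genes below 1000 nucleotides lay a median of 0.36 log2 units above their mean over the 6 libraries. Those of 1000 to 2000 nucleotides lay 0.48 above it, those of 2000 to 4000 nucleotides 0.25 above it and those of 4000 or more 0.11 below it. The median implied length was 1895 nucleotides for oxidative phosphorylation, 1908 for ribosomal protein, 3033 for proteasome and 844 for mitochondrial DNA genes. The part of transcript length in the list values was not tested.

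**Figure D4:**
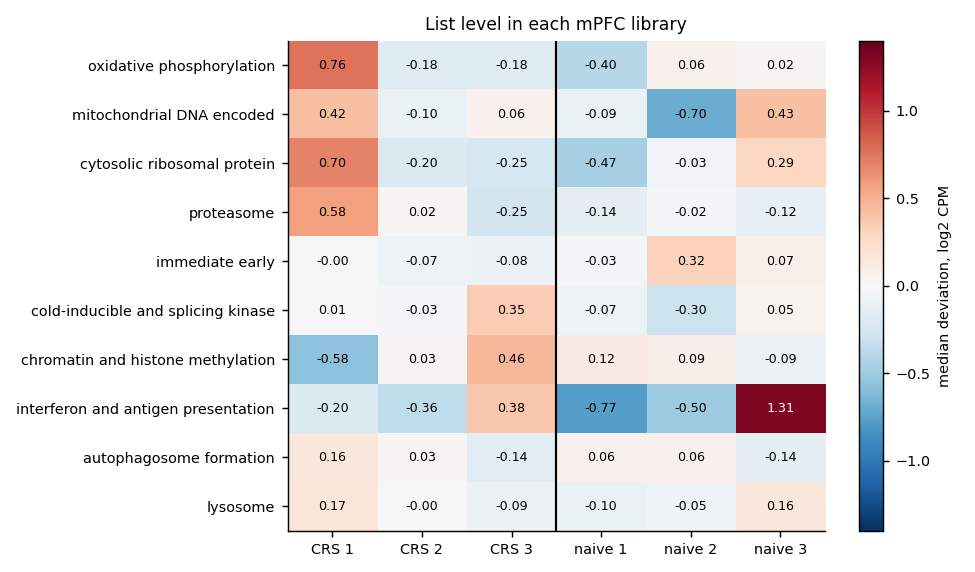
Median over the members of 10 gene lists (down the page) of the deviation of log2 CPM (counts scaled to library size), from the gene's mean over the 6 mPFC libraries (across, CRS left of naive); colour and number give the deviation. Oxidative phosphorylation (0.76), ribosomal protein (0.70) and proteasome genes (0.58) are high in CRS library 1 alone, and interferon genes (1.31) in naive library 3.

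Genes that respond to mild cold, led by Rbm3 above, and the kinases that read temperature into splicing had 17 of 21 fold changes above 0 and a median of 0.22. With single libraries left out the median ran from 0.10 to 0.31 and 15 to 18 genes were above 0. The libraries interleaved, however. The list's median deviation in log2 CPM was 0.008, -0.033 and 0.35 in CRS and -0.072, -0.30 and 0.054 in naive libraries. Naive library 3 thus lay above CRS libraries 1 and 2. The list summed to 893, 1199 and 1338 FPKM in CRS and 1182, 1192 and 1370 FPKM in naive libraries. Cirbp, the second cold-inducible RNA-binding protein, stood at 19.2, 16.4 and 23.9 FPKM in CRS and 12.5, 12.2 and 18.6 FPKM in naive libraries, a log2 fold change of 0.44 (-0.08 to 0.95), with 1 naive library above 1 CRS library. Clk1, a splicing kinase that is active at lower temperature, stood at 13.8, 11.9 and 18.5 FPKM in CRS and 12.2, 7.21 and 11.9 FPKM in naive libraries, a log2 fold change of 0.48 (-0.07 to 1.04). Body temperature is not given in the sources used here. Rbm3 was the 1 gene of the list at an unadjusted p below 0.05.

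Dbp, a clock-controlled transcription factor with a strong daily rhythm, stood at 24.0, 19.2 and 18.5 FPKM in CRS and 13.1, 13.7 and 16.6 FPKM in naive libraries, without overlap. The log2 fold change was 0.49 (0.02 to 0.97), and 0.32 to 0.59 with single libraries left out. The clock list as a whole had 13 of 24 above 0 and a median of 0.03, and the hour of sacrifice is not given in the sources used here. Hspa2, a chaperone of the HSP70 family, stood at 16.2, 15.1 and 22.4 FPKM in CRS and 10.9, 9.98 and 14.1 FPKM in naive libraries, again without overlap, a log2 fold change of 0.59 (0.10 to 1.08). Heat shock genes had 26 of 37 above 0 and a median of 0.08, but 11 of 37 and -0.05 without CRS library 1. Genes of the unfolded protein response had 14 of 28 above 0 and a median of 0.006, and metallothioneins with zinc transporters 4 of 8 and a median of 0.009.

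Medians of the lists of glia, vessels and immunity rose without naive library 3, and some also moved without other libraries. Oligodendrocyte and myelin genes had 3 of 26 fold changes above 0 and a median of -0.08 with all libraries, and 21 of 26 and 0.22 without naive library 3. Without naive library 1, in which this list was lowest, they had 1 of 26 and -0.37. Microglial genes had 8 of 21 above 0 and a median of -0.09, and 20 of 21 and 0.34 without it. Endothelial genes had 5 of 20 above 0 and a median of -0.18, and 20 of 20 and 0.64 without it. In limma-voom the microglial and endothelial medians came to 0.04 and 0.05. Astrocyte genes had 11 of 20 above 0 and a median of 0.05, with 18 of 20 and 0.46 without naive library 3 and 3 of 20 and -0.23 without CRS library 3. The 20 leptomeningeal genes were all lower in CRS, at a median of -1.57, and the median was 1.46 without naive library 3.

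Interferon and antigen presentation genes had 6 of 28 above 0 and a median of -0.34, with 3 at an unadjusted p below 0.05, all lower in CRS, against 0.942% of all genes. H2-Eb1, an MHC class II chain that shows peptides to T cells, stood at 0.107, 0.238 and 0.527 FPKM in CRS and 0.413, 0.291 and 6.64 FPKM in naive libraries, a log2 fold change of -3.02 (-5.71 to -0.33) that was -0.35 without naive library 3. Cd74, the invariant chain of class II molecules, stood at 0.480, 0.931 and 1.57 FPKM in CRS and 1.26, 0.572 and 15.4 FPKM in naive libraries, a log2 fold change of -2.5 (-4.99 to -0.00) that was 0.05 without that library. Naive library 3 alone was high in both, and without it 24 of 28 genes of the list were above 0, at a median of 0.54.

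Chromatin regulators were among the longest genes by the length implied by counts and FPKM, with a median of 14880 nucleotides. They had 25 of 49 fold changes above 0 and a median of 0.01. CRS libraries 1 and 3 lay on opposite sides: the median was 0.24 without CRS library 1 and -0.28 without CRS library 3. Chd5, a neuronal chromatin remodeller, stood at 21.2, 37.6 and 26.9 FPKM in CRS and 37.2, 41.6 and 30.1 FPKM in naive libraries, a log2 fold change of -0.40 (-1.02 to 0.22). Cholesterol and lipid synthesis genes had 8 of 26 above 0 and a median of -0.13, which ran from -0.17 to -0.01 with single libraries left out. Scd1, the desaturase that makes monounsaturated fatty acids, stood at 23.5, 25.9 and 39.5 FPKM in CRS and 42.5, 48.2 and 39.9 FPKM in naive libraries. All CRS libraries lay below all naive ones, if barely for CRS library 3, and the log2 fold change was -0.60 (-1.17 to -0.04).

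Whether the CRS effect of mPFC differs from that of the other regions was tested as its log2 fold change minus the mean log2 fold change of vHippo, VTA, NAc and LH, over all 30 libraries. The test takes these libraries as independent, and the labels do not say whether libraries of different regions share mice. Of 24244 genes 0 passed (0%) in edgeR, the smallest adjusted p was 0.5414, and 1175 (4.85%) had an unadjusted p below 0.05, of which 601 were more positive (2.48%) and 574 more negative (2.37%) in mPFC. DESeq2 called 62 of 39105 genes with a count for this difference, among them Ube2e3, Zfp825, Lgr5, Rn7sk, Rn7s1, Rn7s2 and Lars2. Of the 62, 10 are on the skin and muscle lists and 7 on the olfactory bulb list, all chosen after the values were seen. In mPFC 22 of them were listed at 0 in every CRS library, and 20 stayed below 1 FPKM in all 6 libraries. The 5 more positive genes with the smallest p were Lgr6, Ube2e3, Doc2g, Lgr5 and Zfp825. Of these, Lgr6 stood at 0.270, 0.540 and 21.8 FPKM in CRS and 0.444, 0.298 and 0.260 FPKM in naive libraries, Doc2g at 0.771, 0.453 and 48.1 FPKM in CRS and 0.239, 0.186 and 0.896 FPKM in naive libraries, and Lgr5 at 0.203, 0.222 and 13.2 FPKM in CRS and 0.113, 0.194 and 0.129 FPKM in naive libraries. All 3 were high in CRS library 3 alone. As they are members of the olfactory bulb list, this is not separate from the list's high sum in that library.

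Ube2e3, a ubiquitin-conjugating enzyme gene, stood at 18.1, 13.9 and 21.5 FPKM in CRS and 13.7, 8.13 and 11.4 FPKM in naive mPFC libraries, without overlap. Its log2 fold change was 0.67 in mPFC against -0.18, -0.23, 0.11 and -0.28 in vHippo, VTA, NAc and LH, a difference of 0.81 (0.44 to 1.17; adjusted p = 0.5414 in edgeR and 0.00993 in DESeq2). Zfp825, a zinc finger gene, stood at 5.04, 3.30 and 4.14 FPKM in CRS and 2.16, 1.80 and 1.79 FPKM in naive mPFC libraries, also without overlap. For this gene the log2 fold change was 1.09 in mPFC against 0.06, 0.11, 0.04 and -0.28 in the other regions in the same order, a difference of 1.10 (0.59 to 1.61; adjusted p = 0.5504 in edgeR and 0.0102 in DESeq2). The 5 more negative genes with the smallest p were the small structural RNAs Rn7sk, Rn7s1, Rn7s2 and Rmrp and the gene Lars2, a mitochondrial leucyl-tRNA synthetase. Rn7sk stood at 1.48, 2.26 and 2.69 FPKM in CRS and 11.4, 152 and 3.53 FPKM in naive mPFC libraries, and Lars2 at 4.89, 7.67 and 4.89 FPKM in CRS and 24.0, 166 and 8.16 FPKM in naive mPFC libraries. Both were by far highest in naive library 2, the one in which ribosomal RNA took 7.0% of counts. Rn7s1 and Rn7s2 are near-identical copies that can share reads.

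Rbm3 was above 0 in all 5 regions, at 0.80 ± 0.22 in mPFC (SE, log2 fold change) and 0.42 ± 0.07, 0.29 ± 0.13, 0.19 ± 0.17 and 0.20 ± 0.20 in vHippo, VTA, NAc and LH. The mPFC value exceeded their mean by 0.52 (0.12 to 0.91; adjusted p = 0.9371 in edgeR), and by 0.32 without CRS library 1 (adjusted p = 1 in edgeR). Dbp was also above 0 in all regions, at 0.49 ± 0.21 in mPFC and 0.16 to 0.36 elsewhere, a difference of 0.20 (-0.17 to 0.58). Hif3a had a smaller fold change in mPFC than elsewhere, though the difference did not pass, at 0.55 ± 0.34 against 1.12 ± 0.23, 1.25 ± 0.21, 0.84 ± 0.31 and 1.01 ± 0.34 in the same order, a difference of -0.51 (-1.23 to 0.22; adjusted p = 1 in edgeR). Fkbp5 stood at 0.10 in mPFC and -0.38 to 0.39 elsewhere, and Map1lc3b at 0.08 and -0.33 to 0.02. Oxidative phosphorylation genes were more positive in mPFC than in the other regions for 75 of 75 members, against 48.8% of all genes, at a median difference of 0.34. Among them 8 had an unadjusted p below 0.05, all more positive, against 2.48% of all genes. These figures come from a fit that includes CRS library 1 of mPFC, without which the mPFC median is -0.08.

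**Figure D5:**
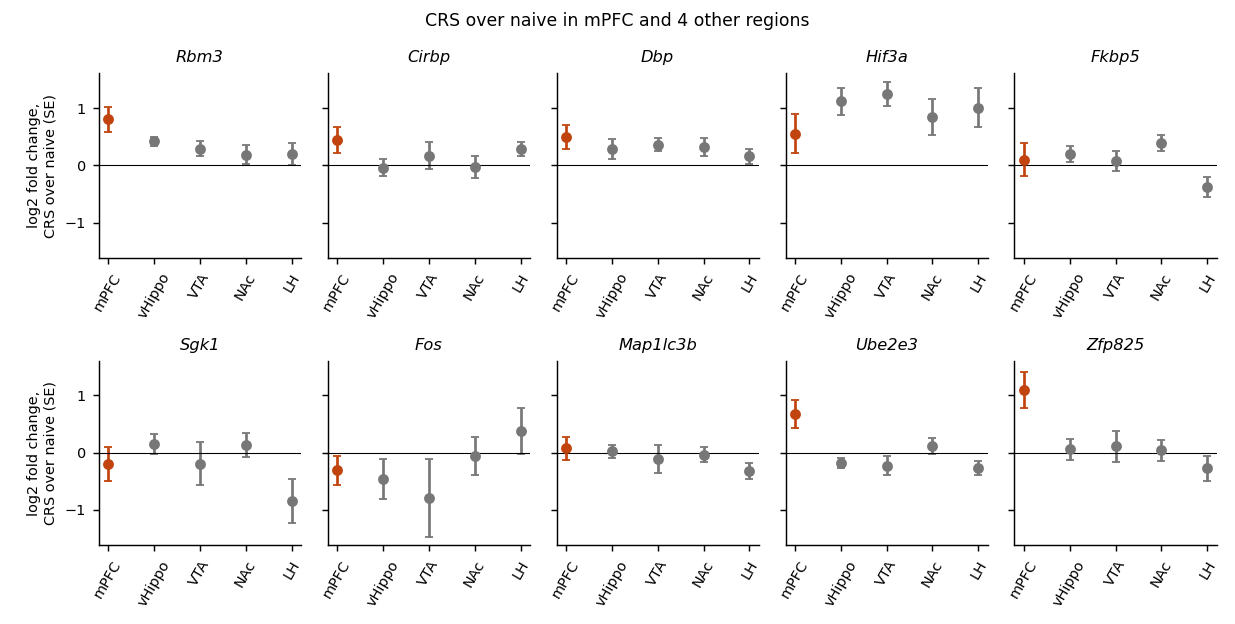
Log2 fold change of CRS over naive (vertical axis, bars show the SE) for 10 genes in mPFC (orange) and in vHippo, VTA, NAc and LH (grey), 3 CRS and 3 naive libraries each. Ube2e3 (0.67) and Zfp825 (1.09) are positive in mPFC and close to 0 or below it in most other regions, Rbm3 and Dbp are above 0 in all 5, and Hif3a is smaller in mPFC (0.55) than elsewhere (0.84 to 1.25).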

How the data were processed

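Poly(A) RNA of mPFC tissue was sequenced in 6 libraries, 3 CRS and 3 naive, grouped by their titles. The authors deposited read counts and FPKM per gene for 30 libraries of 5 regions, per the file headers. The tools cutadapt 1.9, HISAT2 2.0.4, StringTie 1.3.4d and edgeR (no version) come from the submitters' processing notes. How counts and strand were handled is not given in the sources used here. The notes name GRCm39, but 99.519% of 40748 gene starts matched by ID equal GENCODE M21 (GRCm38). A further 18 count columns matched no sample and were not used.

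The test on counts was that of edgeR 4.0.16, run in R 4.3.3 (filterByExpr, TMM, quasi-likelihood F test, two-sided, Benjamini-Hochberg threshold 0.05), for the 6 mPFC libraries alone and, for the difference from other regions, over 30 libraries. Checks on simulated counts were run at a smaller spread than that of the mPFC libraries. They concern the code and do not give the power to find changes in these data. The alternatives were DESeq2 1.42.0, limma 3.58.1 (voom, and log2 of FPKM + 0.1), other scalings and low-count filters, a replicate block and leaving out libraries. The choices to leave out CRS library 3 and naive library 3 together and to use robust dispersion were made after the data were seen. No sequence is shown, since no gene passed.

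The genes named were the 5 per direction with the smallest p, since none passed, among genes with a mean of at least 1 FPKM and no predicted or clone name, and likewise for the difference from the other regions. To them were added 14 genes of autophagy, the stress response and glutamate receptors, and up to 4 members of each list with the smallest p. Krt14, Eomes and the lists of skin, muscle and olfactory bulb were chosen after their values were seen. The members and all lists were chosen with earlier results of these data known. Of the 58 lists, the report gives those with a result in the text. Depth ran from 53143878 to 79029360 counts per library, so the spread between libraries rather than depth limits the precision of expressed genes. Chi-square per degree of freedom between mPFC libraries of a group ran from 152 to 386.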

Additional observations from a re-analysis of the deposited data

How the results depend on the processing

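The count of 0 genes for CRS against naive mPFC in edgeR was also 0 with RLE and upper-quartile factors, without mitochondrial and ribosomal RNA genes, with no low-count filter, with a mean CPM of at least 1, with limma-voom, limma on log2(FPKM + 0.1), robust dispersion and 30 libraries in the fit. DESeq2 called 36 genes (4 higher, 32 lower). Leaving out a single library gave 0 to 4 genes (0 higher, 0 to 4 lower), the 4 without naive library 3. Leaving out CRS library 3 and naive library 3 together, chosen after the data were seen, gave 32 genes (1 higher, 31 lower), of which 19 are on the skin and muscle lists and 15 were listed at 0 in every CRS library. Those lists were also chosen after the values were seen. Some of the 32, among them Krt5, Krt6a, Krt17, Elovl3 and Tnnt3, were removed by the low-count filter with all libraries and so not tested there. With the pair left out they passed it through naive libraries 1 and 2, where they are high. At an unadjusted p below 0.05 stood 314 genes, and 810 with no low-count filter, 817 with DESeq2, 1348 with 30 libraries in the fit and 875 without the pair of libraries, and 224 (without naive library 2) to 702 (without CRS library 2) with single libraries left out, among them 637 without CRS library 3, 655 without naive library 3 and 490 without CRS library 1. For the difference from the other regions that count was 1175, with 1078 to 2060 where single libraries were left out (1940 without CRS library 2, 2060 without CRS library 3, 2056 without naive library 3). For the difference from the other regions, DESeq2 called 62 genes (25 more positive, 37 more negative), leaving out single libraries gave 0 to 4 (0 to 2 more positive, 0 to 2 more negative), and leaving out the pair gave 3 (2 and 1). Of the 58 gene lists, 0 had a called member in edgeR, 2 with DESeq2 and 1 with the replicate block.

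Equal replicate numbers do not stand for a stated pairing. The deviations of same-numbered CRS and naive mPFC libraries correlated at 0.0915, 0.0677 and 0.246. A replicate block gave 1 gene, higher in CRS, the bulb gene Eomes. Naive library 3 correlated best with its own number. Naive library 1 correlated best with CRS library 2 (0.109) and naive library 2 with CRS library 1 (0.0932), both by small margins. The labels leave pairing open, and these values do not settle it.

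Of 67 fold changes of named genes, 57 kept their direction in every alternative. The other 10 changed sign where libraries were left out. With single libraries left out the log2 fold change ran from -0.055 to 0.18 for Sqstm1, from -0.14 to 0.30 for Fkbp5, from -0.14 to 0.16 for Becn1 and from -0.10 to 0.17 for Map1lc3b. It ran from -0.18 to 0.58 for Arc, from -3.02 to 0.055 for Cd74, from -0.017 to 0.63 for Mtor, from -0.38 to 0.043 for Sgk1 and from -0.013 to 1.45 for Cdkn1a. Without CRS library 3 and naive library 3 it was -0.046 for Mtor, 0.16 for Sgk1, -0.13 for Arc, -0.071 for Cdkn1a and -0.034 for Trh. The cause was not tested.

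Of 45 list medians, 7 kept their sign in every alternative: upper-layer neuron, immediate-early, cold-inducible, neurotrophin, serotonin receptor, dopamine and adrenergic receptor, and cholesterol genes. Without CRS library 1 the sign of 17 medians changed, without CRS library 3 that of 16 and without naive library 3 that of 14. Without mitochondrial and ribosomal RNA genes the mitochondrial DNA list gives no value. No scaling moved the median of all genes by more than 0.1.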

Other observations

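Among the X-linked lymphocyte-regulated genes, a multi-copy family on the X chromosome whose near-identical copies can share reads, 2 of 6 members in the table are given here, chosen after their values were seen. Xlr4a was listed at 0 in all 3 CRS mPFC libraries and stood at 0.250, 0.799 and 0.607 FPKM in naive libraries 1 to 3, with 22, 98 and 60 reads there. DESeq2 called it (adjusted p = 7.7e-05), and edgeR did not (adjusted p = 0.9996). Xlr3b stood at 0.0111, 0.0611 and 1.64 FPKM in CRS and 2.38, 2.07 and 3.80 FPKM in naive mPFC libraries, so CRS libraries 1 and 2 were near 0 and CRS library 3 lay closer to the naive ones.

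The order of the libraries was alike outside mPFC. In the 12 CRS libraries of the other regions Xlr4a ran from 0 to 0.0937 FPKM, against 0.176 to 1.39 FPKM in the 12 naive ones, so the groups did not overlap. Xlr3b ran from 0.00802 to 0.281 FPKM in the libraries numbered CRS 1, from 0.0321 to 0.521 in those numbered CRS 2 and from 1.65 to 2.27 in those numbered CRS 3, against 1.63 to 6.04 FPKM in naive libraries. Which libraries come from the same mice is not given in the sources used here.

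The genes of other tissue also appeared elsewhere. The skin sum was above 50 FPKM in 4 of the 24 other libraries, 2 CRS and 2 naive, and the muscle sum in 2 of 24, both naive. The olfactory bulb sum was above 50 FPKM in 9 of the 24, 6 CRS and 3 naive, and reached 429 FPKM. Upper-layer neuron genes, a cortical list not described above, had 10 of 12 fold changes above 0 and a median of 0.35 (0.21 to 0.67 with single libraries left out). Deep-layer neuron genes had 6 of 16 above 0 and a median of -0.20 (-0.37 to 0.03 with single libraries left out). Lamp5, an upper-layer and interneuron gene on the upper-layer list, stood at 74.5, 46.3 and 29.4 FPKM in CRS and 44.4, 19.8 and 30.7 FPKM in naive libraries, a log2 fold change of 0.67 (-0.23 to 1.58) with overlapping groups (adjusted p = 0.9996 in edgeR).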
